A study of Saccharomyces cerevisiae with 8 samples.

Results

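The 39 nuclear genes described here encode enzymes of the tricarboxylic acid (TCA) cycle, subunits of respiratory complexes II, III and IV, iso-1-cytochrome c and subunits of the ATP synthase. They are a list of names that was chosen with earlier results of these data known. All 39 were found among the 5798 genes of the table. Total RNA was sequenced from exponentially growing Saccharomyces cerevisiae of the W303 background, a common laboratory strain, with 2 libraries from each of 4 strains. GPD-SIR3-A2Q carried SIR3 with the A2Q change, near the start of the protein, under the GPD promoter. GPD-SIR3 carried SIR3 under the same strong promoter, SIR3Δ lacked SIR3, and WT was wild type. SIR3 encodes a nucleosome-binding protein that silences genes at chromosome ends and at the hidden mating-type copies, and the study varied its dose. Separate cultures are not stated for the 2 libraries of a strain, so every p-value reflects the spread between libraries, which may be technical. The growth medium is not given in the sources used here.

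The TCA cycle oxidizes acetyl units in the mitochondrial matrix, and its electrons pass through succinate dehydrogenase (complex II), the cytochrome bc1 complex (complex III) and cytochrome c to cytochrome c oxidase (complex IV). The proton gradient that this builds drives the ATP synthase (complex V). Budding yeast has no proton-pumping complex I. Most subunits are encoded in the nucleus, a few core ones in mitochondrial DNA. When glucose is plentiful yeast ferments, and many of these genes are kept low; the Hap2/3/4/5 activator, which binds CCAAT boxes, raises them in respiring cells.

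Levels are read counts that the authors scaled so that the gene rows of every library add up to 7006670. The libraries held 7006670 (GPD-SIR3 2) to 18077542 (SIR3Δ 1) reads on genes. SIR3 itself had scaled counts of 13132 and 13217 in GPD-SIR3-A2Q and 10730.4 and 13865 in GPD-SIR3. It had 39.1 and 36.8 in SIR3Δ, and 448 and 484 in WT. These levels match the labels for overexpression, deletion and wild type. They cannot tell GPD-SIR3-A2Q from GPD-SIR3, and the A2Q change itself was not examined. Small nucleolar RNAs took 15.4% to 22.8% of all reads and mitochondrial genes 5.45% to 7.81% of the reads on genes.

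Sequence around the start of the members was searched for the CCAAT box because it is the best known control element of respiratory genes. With the letters ATTGGT on either strand, in the window from 250 bases before to 50 bases after the start codon, 12 of 39 members (30.8%) held a match, against 16.2% of 5774 genes. The retrograde R box GTCAC was found in 14 of 39 members (35.9%), against 26.7% of genes. The Mig1 core GCGGGG, bound by a glucose repressor, was found in 4 of 39 members (10.3%), against 2.55% of genes. In a longer window, the 500 bases before the start, which was added after seeing the data, the shares were 38.5% against 25.8% for the CCAAT box, 61.5% against 42.6% for the R box and 30.8% against 5.84% for the Mig1 core. These are letter matches, not tested sites. The lines below give, as examples, the CCAAT matches within the 250 bases before the start of 6 members, as 30 bases of the gene's own strand from the RefSeq S288C genome, build R64, with the box in capitals. ACCAAT is the box read on the other strand, and the W303 sequence was not examined.
QCR6, chrVI:224858-224887, minus strand, box 106 bases before the start: cttaagggcagtATTGGTtggcgcttattt
QCR6, chrVI:224996-225025, minus strand, box 244 bases before the start: acgtgaccgtgcACCAATgggaagcacgtt
QCR7, chrIV:1496713-1496742, minus strand, box 182 bases before the start: gatcttgttttgACCAATcaggagcgacgc
COX6, chrVIII:209478-209507, plus strand, box 215 bases before the start: aaaagggacctaATTGGTccggtcaaagca
COX12, chrXII:225361-225390, minus strand, box 206 bases before the start: ttcataacattgACCAATcaattttcagaa
COX13, chrVII:144583-144612, plus strand, box 213 bases before the start: attttttttcccACCAATgagaggcggtac
ATP4, chrXVI:408917-408946, minus strand, box 190 bases before the start: catcaatattgaACCAATcacgacgctttt
QCR6 held a pair of boxes in these 250 bases, and each of the other 5 genes printed held a single one. CYC1, IDH2 and LSC2, which recur below, had no match in the window from 250 bases before to 50 bases after the start codon.

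The members were spread over 14 chromosomes, and 38 of 39 had the same coordinates in the table as in the R64 annotation. The exception was COX4, whose table interval is longer than its coding sequence. Sir3 acts mainly near chromosome ends. QCR2, a core subunit of complex III, was the single member within 30 kb of an end, at 27.6 kb, and the median distance was 169 kb. Introns within the coding sequence are annotated in QCR9 and QCR10 alone, and introns outside it were not looked for. No member shares a 50-base stretch with another place in the genome.

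All 39 members were well expressed: each had between 223 and 31389 reads in a library and a level per kb of coding sequence above the median of all tested genes. Their median was 1667 scaled reads per kb over the 8 libraries, and 90.04% of tested genes lay below it. The median of all tested genes was 222. For all tested genes the length used was that of the table interval, not of the coding sequence. The TCA cycle enzymes covered the widest range, with ACO1 (aconitase) at 5570.1 scaled reads per kb and LSC2 (the beta subunit of succinyl-CoA ligase) at 560.3. In complex II, SDH2 (the iron-sulphur subunit) stood at 1018 and SDH4 (a membrane anchor) at 575 scaled reads per kb, a 1.77-fold range. In complex III the levels ran from 2621 scaled reads per kb for QCR8 to 563 for QCR6, 2 small accessory subunits. CYC1, for iso-1-cytochrome c, had 3789 scaled reads per kb. In complex IV, COX4 had 3722 and COX12 had 1581 scaled reads per kb. The count of COX4 belongs to a table interval of 822 bases but was divided by 468 coding bases. Its level may therefore be overstated, and COX9 followed with 3365 scaled reads per kb. In the ATP synthase, ATP2 (the catalytic beta subunit) was the most abundant member per kb with 7256 scaled reads, and ATP3 (the gamma subunit of the central stalk) had 1306. Subunits of 1 complex therefore differed by 1.77-fold to 5.56-fold in level per kb, and the TCA enzymes by 9.94-fold.

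**Figure D1:**
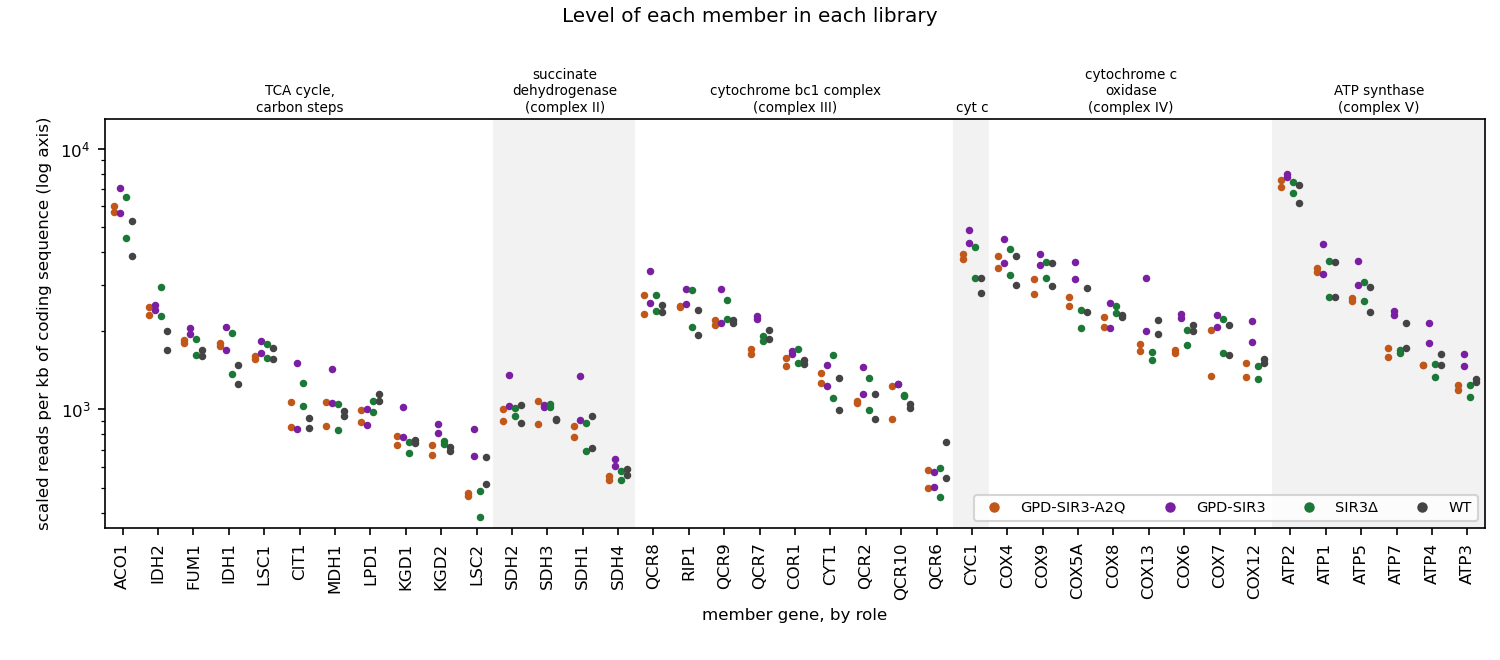
Scaled reads per kb of coding sequence (log axis) of each member in each of the 8 libraries, grouped by role and ordered by mean within a role; colours mark the strains, in the order GPD-SIR3-A2Q, GPD-SIR3, SIR3Δ and WT from left to right. Members differ from one another far more (ATP2 at 7256, LSC2 at 560.3 on average) than any member differs between strains.

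Several members have a second gene for the same step, used under other conditions. COX5A was 13.3 times as abundant per kb as COX5B, its form for low oxygen, and CYC1 30.1 times as abundant as CYC7, iso-2-cytochrome c. SDH1 stood 48.6-fold above its paralog YJL045W, and SDH3 stood 53.4-fold above SHH3. For SDH4 and SHH4 the ratio was 9.09. CIT1 stood 59.2-fold above CIT3, and MDH1 stood 5.29-fold above the cytosolic MDH2. These ratios are of means over all 8 libraries. Mitochondrial CIT1 and peroxisomal CIT2 differed by 1.19-fold on that mean. By strain mean, CIT1 had 1169.9 and CIT2 1182 scaled reads per kb in GPD-SIR3, against 888 for CIT1 and 594 for CIT2 in WT. The libraries of GPD-SIR3 disagreed, with CIT1 above CIT2 in GPD-SIR3 1 and below it in GPD-SIR3 2. MDH1 and peroxisomal MDH3 differed by 1.12-fold. Their strain means were 1242 for MDH1 and 981 for MDH3 in GPD-SIR3, against 963 for MDH1 and 973 for MDH3 in WT. The order of a pair within a strain was not tested.

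Each comparison between strains was fitted with limma on log2(scaled count + 1) of all 5473 genes that passed a minimum of 10 scaled reads in at least 2 libraries, with Benjamini-Hochberg adjustment over all of them. All 39 members passed this minimum. No member reached an adjusted p below 0.05 in any comparison, and standard errors were 0.10 to 0.24 on the log2 scale. An F test over the 4 strains called 0 members by limma, with 11 members below an unadjusted 0.05; over all genes those shares were 3.0% and 12.5%. The smallest adjusted p of that limma F test was 0.146, for LSC2. DESeq2's likelihood ratio test called LSC2 alone, with 5.34% of all genes called. edgeR and limma-voom called no member in the F test or in any comparison. The comparisons below share libraries, those of WT in 3 of them and those of GPD-SIR3 in 2, so their values are not independent of each other. In RNA from whole cultures, a difference in every cell and a difference in the mix of cells cannot be told apart.

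As a share of all reads on genes, the 39 members took 0.998% and 1.02% in GPD-SIR3-A2Q, 1.07% and 1.24% in GPD-SIR3, 0.899% and 1.10% in SIR3Δ, and 0.862% and 1.01% in WT. The means were 1.01% ± 0.014 in GPD-SIR3-A2Q, 1.15% ± 0.122 in GPD-SIR3, 0.999% ± 0.141 in SIR3Δ and 0.934% ± 0.101 in WT (SD, n = 2 each). The GPD-SIR3 pair lay above the WT pair without overlap, the SIR3Δ pair enclosed the GPD-SIR3-A2Q pair, and 2 libraries against 2 cannot give an exact permutation p below 0.333. The 8 mitochondrially encoded protein genes took 1.97% ± 0.104 of gene reads in GPD-SIR3-A2Q, 2.14% ± 0.183 in GPD-SIR3, 1.79% ± 0.273 in SIR3Δ and 1.96% ± 0.016 in WT (SD, n = 2 each).

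One library stood apart. GPD-SIR3 2, which is also the shallowest, had the highest value of the 8 libraries for 26 of 39 members, while 31.7% of all tested genes peaked there. Its members lay at a median of 0.33 above their mean over the 8 libraries on the log2 scale, against 0.09 for all genes. The same median was 0.07 in GPD-SIR3 1, −0.09 and −0.03 in the GPD-SIR3-A2Q libraries, −0.15 and 0.05 in the SIR3Δ libraries, and −0.10 and −0.01 in the WT libraries. Members also moved together between the libraries of 1 strain: 31 of 39 were higher in GPD-SIR3 2 than in GPD-SIR3 1, 35 of 39 in SIR3Δ 2 than in SIR3Δ 1, and 29 of 39 in WT 2 than in WT 1, by medians of 0.21, 0.19 and 0.14 on the log2 scale. For all genes those medians were 0.06, −0.01 and −0.01. The GPD-SIR3-A2Q libraries were closer to each other, with a median gap of 0.04 for the members and for all genes. The widest single gap was that of CIT1, which had 2157 scaled reads in GPD-SIR3 2 and 1212 in GPD-SIR3 1.

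**Figure D2:**
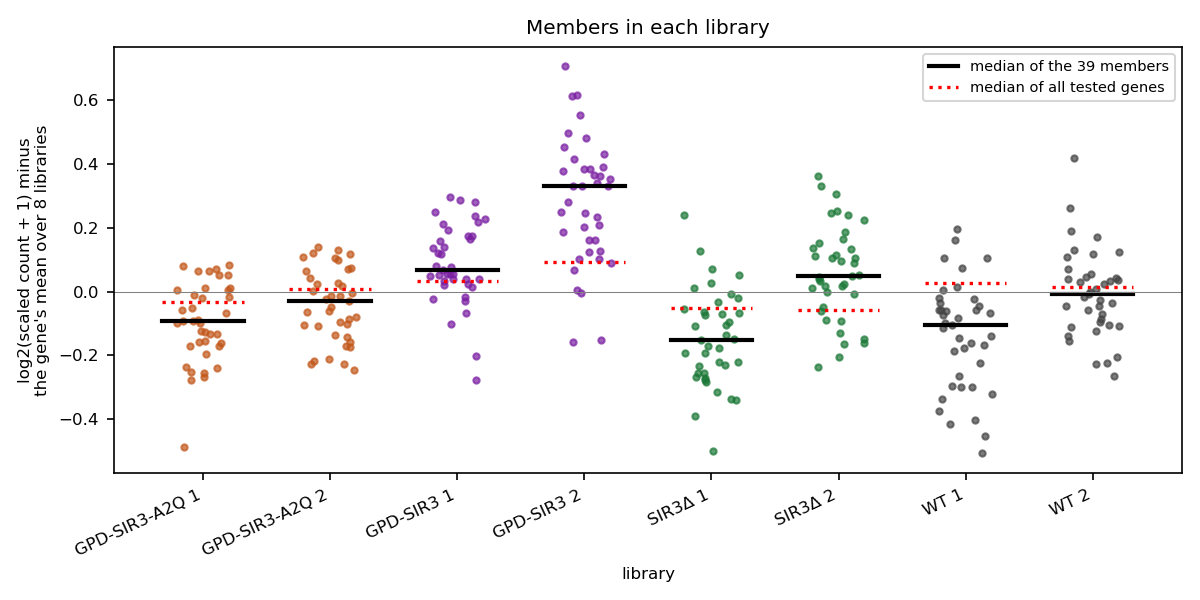
Deviation of each of the 39 members from its own mean over the 8 libraries (log2 of scaled count + 1, y axis) in each library (x axis); black bars are the members' medians and red dotted bars the medians of all tested genes. The members of GPD-SIR3 2 sit at a median of 0.33 and those of SIR3Δ 1 at −0.15.

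Against WT, the values of GPD-SIR3 were one-sided. They lay above WT for 37 of 39 members, against 59.3% of all genes, and the members' median log2 fold change was 0.28, against 0.04 for all genes. For 24 members both GPD-SIR3 libraries lay above both WT libraries, and for 1 member both lay below; over all genes these shares were 20.5% and 13.3%. Still, limma called 0 members, 10 had an unadjusted p below 0.05, all above WT, and of all genes 1.32% were called and 8.68% had such a p. By role, the median log2 fold change was 0.34 for the TCA enzymes, 0.23 for complex II, 0.23 for complex III, 0.24 for complex IV and 0.27 for the ATP synthase, with 10 of 11, 4 of 4, 8 of 9, 8 of 8 and 6 of 6 members above 0. Without GPD-SIR3 2 these medians were 0.19, 0.12, 0.10, 0.20 and 0.20 in the same order.
CYC1, the mobile electron carrier between complexes III and IV, had the highest value of this comparison. It had 1435 and 1609 scaled reads in GPD-SIR3, against 923 and 1055 in WT. The strains did not overlap, and the log2 fold change was 0.62 ± 0.15 (SE; 95% interval 0.285 to 0.958; limma adjusted p = 0.130). DESeq2 called CYC1 (log2 fold change 0.58, adjusted p = 0.0443) as its only member higher here, where it called 0.439% of all genes higher.
IDH2, a subunit of NAD-dependent isocitrate dehydrogenase, had 2674 and 2781 scaled reads in GPD-SIR3, against 1865 and 2216 in WT, again without overlap (log2 fold change 0.42 ± 0.14, SE; limma adjusted p = 0.393). COX12, a small subunit of complex IV, had 455 and 550.0 scaled reads in GPD-SIR3, against 378 and 391 in WT, and ATP4, of the stator stalk of the ATP synthase, had 1314 and 1569 in GPD-SIR3, against 1087 and 1197 in WT. Both were higher in each GPD-SIR3 library than in either WT library, with log2 fold changes of 0.38 and 0.33 and a limma adjusted p of 0.488 each. QCR7, of complex III, had 877 and 851 scaled reads in GPD-SIR3, against 776 and 714 in WT (log2 fold change 0.21, limma adjusted p = 0.655).
SDH1, the flavoprotein of complex II, had 1742 and 2567 scaled reads in GPD-SIR3, against 1366 and 1806 in WT, so that the strains overlapped (log2 fold change 0.43, limma adjusted p = 0.637). The 2 members below 0 were QCR6 and LPD1. QCR6, an acidic subunit of complex III, was at −0.25 (limma adjusted p = 0.807), with 255 and 223 scaled reads in GPD-SIR3, against 242 and 331 in WT. The strains overlapped, and leaving out single libraries gave −0.47 (without WT 1) to −0.02 (without WT 2). LPD1, a dehydrogenase subunit shared by several complexes, had 1307 and 1507 scaled reads in GPD-SIR3, against 1616 and 1715 in WT.
Without GPD-SIR3 2, the members' median log2 fold change against WT was 0.17 with 34 of 39 above 0. Without GPD-SIR3 1 it was 0.42 with 36 above 0, and without WT 1 it was 0.22. After TMM rescaling, edgeR's normalization, the median was 0.24 with 36 above 0. There 6 members had an unadjusted limma p below 0.05, and 23 lay above WT without overlap. The shares of all genes given above are for the deposited scaling only, so these 2 counts cannot be set against them. The part that the depth of GPD-SIR3 2 has in the result was not tested.

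GPD-SIR3-A2Q against WT gave values on both sides of 0. The median log2 fold change of the members was −0.01, against −0.03 for all genes, with 17 of 39 above 0, against 44.4% of all genes. Rescaling by TMM turned the median to 0.02 with 24 members above 0. Both GPD-SIR3-A2Q libraries were above both WT libraries for 6 members and below them for 7; over all genes these shares were 16.5% and 23.3%. limma called 0 members, as did edgeR, DESeq2 and limma-voom, and 3 had an unadjusted p below 0.05; of all genes 0.749% were called by limma and 6.85% had such a p. IDH2 was highest, with 2560.4 and 2748 scaled reads in GPD-SIR3-A2Q, against 1865 and 2216 in WT (log2 fold change 0.38 ± 0.14, SE; limma adjusted p = 0.654). CYC1 followed, with 1304 and 1246 scaled reads in GPD-SIR3-A2Q, against 923 and 1055 in WT (log2 fold change 0.37, limma adjusted p = 0.696). Neither overlapped with WT. COX6, a subunit of complex IV, lay lower, with 735 and 752 scaled reads in GPD-SIR3-A2Q, against 941 and 893 in WT (log2 fold change −0.30 ± 0.11, SE; limma adjusted p = 0.675). LSC2 was lowest at −0.30 as well, with 612 and 598 scaled reads in GPD-SIR3-A2Q, against 664 and 839 in WT (limma adjusted p = 0.773). QCR7 had 626 and 653 scaled reads in GPD-SIR3-A2Q, against 776 and 714 in WT, at a log2 fold change of −0.22. These 3 were lower in both GPD-SIR3-A2Q libraries than in either WT library. ATP7, a stator stalk subunit, overlapped with WT, at 904 and 831 scaled reads in GPD-SIR3-A2Q, against 1127 and 903 in WT. SDH3, a membrane anchor of complex II, had the smallest p of that complex and yet a log2 fold change of 0.08 with a limma adjusted p of 0.918. By role the medians were 0.01 for the TCA enzymes, −0.00 for complex II, 0.05 for complex III, −0.13 for complex IV and −0.04 for the ATP synthase, and that of complex II was 0.03 after TMM rescaling.

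SIR3Δ against WT was mixed too. The members' median log2 fold change was 0.06, against −0.07 for all genes, with 24 of 39 above 0, against 36.1% of all genes. Rescaling by TMM moved the median to 0.13 with 28 above 0, and leaving out SIR3Δ 2 moved it to −0.05 with 13 above 0; without WT 1 it was −0.04 with 17 above 0. The sign therefore rests on single libraries. For 7 members both SIR3Δ libraries lay above both WT libraries and for 5 below; over all genes these shares were 11.2% and 28.3%. limma called 0 members, 2 had an unadjusted p below 0.05, and of all genes 0.968% were called and 8.44% had such a p. IDH2 had 2537 and 3279 scaled reads in SIR3Δ, against 1865 and 2216 in WT. Both SIR3Δ libraries were above both WT libraries, with a log2 fold change of 0.50 ± 0.14 (SE; 95% interval 0.183 to 0.826; limma adjusted p = 0.283). DESeq2 called IDH2 (log2 fold change 0.59, adjusted p = 0.0317), where it called 0.493% of all genes higher. LSC2 was the lowest member, with 495 and 624 scaled reads in SIR3Δ, against 664 and 839 in WT (log2 fold change −0.42 ± 0.17, SE; limma adjusted p = 0.550). COX13, a regulatory subunit of complex IV, had 601 and 644 scaled reads in SIR3Δ, against 760.4 and 854 in WT (log2 fold change −0.37, limma adjusted p = 0.676). ATP7 had 862 and 889 scaled reads in SIR3Δ, against 1127 and 903 in WT, at −0.21. In these 3 the SIR3Δ libraries were both lower than the WT libraries, though ATP7 in SIR3Δ 2 was close to WT 2. CYC1 had 1050.0 and 1380.1 scaled reads in SIR3Δ, against 923 and 1055 in WT, and overlapped (log2 fold change 0.29, limma adjusted p = 0.676). QCR6 overlapped as well, at −0.28 (−0.51 to −0.06 when single libraries were left out), and SDH3, at 0.18, did not. By role the medians were 0.08 for the TCA enzymes, −0.01 for complex II, 0.13 for complex III, −0.03 for complex IV and −0.06 for the ATP synthase, and those of complexes II, IV and V were above 0 after TMM rescaling.

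**Figure D3:**
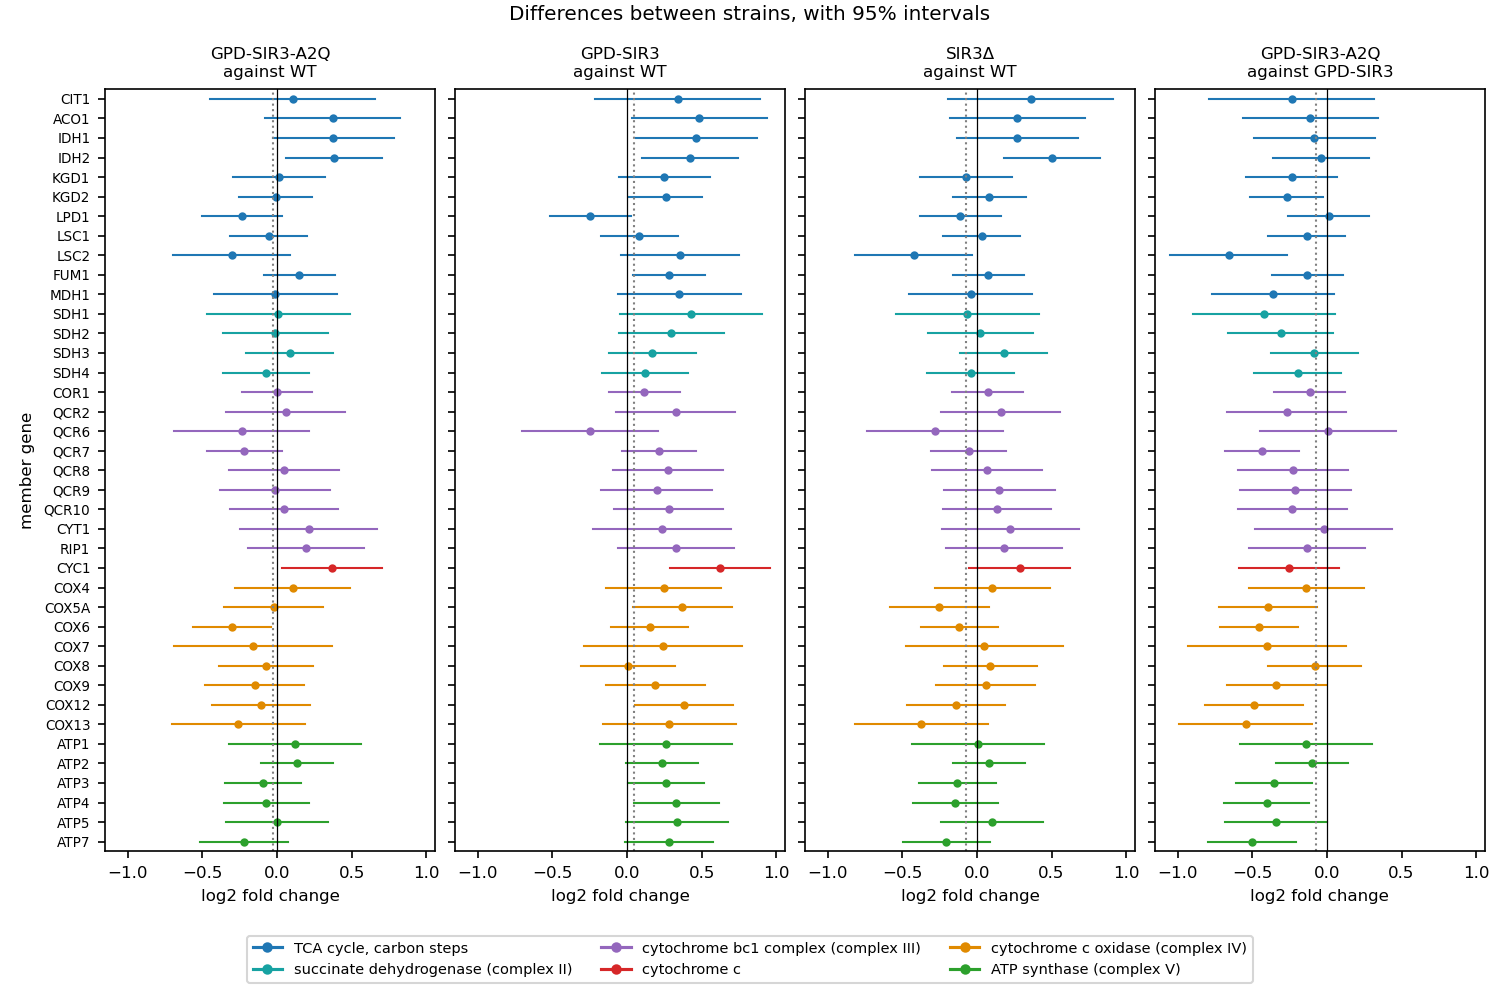
Log2 fold change of each member in each comparison (points; log2 of scaled count + 1) with its 95% interval from limma (bars), coloured by role; the dotted line is the median of all tested genes. Points sit to the right for GPD-SIR3 against WT (median 0.28), to the left for GPD-SIR3-A2Q against GPD-SIR3 (median −0.24) and around 0 in the other panels.

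GPD-SIR3-A2Q against GPD-SIR3 compares strains with the same promoter and SIR3 levels that overlap. The fitted value lay below 0 for 37 of 39 members; 2 of 39 were above 0, against 37.5% of all genes. The members' median log2 fold change was −0.24, against −0.07 for all genes. For 24 members both GPD-SIR3-A2Q libraries were below both GPD-SIR3 libraries and for 0 they were above; over all genes these shares were 28.0% and 13.0%. limma called 0 members, as did edgeR, DESeq2 and limma-voom, and 11 had an unadjusted p below 0.05, all of them lower in GPD-SIR3-A2Q; of all genes 1.46% were called by limma and 10.2% had such a p. The median was −0.40 for complex IV and −0.35 for the ATP synthase, with 5 of 8 and 3 of 6 members below an unadjusted 0.05. It was −0.14 for the TCA enzymes, −0.25 for complex II and −0.21 for complex III. Without GPD-SIR3 2 the medians were −0.32 for complex IV, −0.23 for the ATP synthase, −0.05 for the TCA enzymes, −0.13 for complex II and −0.09 for complex III. No test of a difference between the roles was made.
The members were split by a CCAAT match in the window from 250 bases before to 50 bases after the start codon. Of the 12 with a match, 10 were lower in GPD-SIR3-A2Q than in GPD-SIR3 without overlap, and of the 27 without one, 14 were. Over all genes the share was 28.0%. The match of FUM1, which is among these 10, does not lie within the 500 bases before the start codon. In GPD-SIR3 against WT, 8 of the 12 and 16 of the 27 were higher without overlap, against 20.5% of all genes. In GPD-SIR3-A2Q against WT, 4 of the 12 and 3 of the 27 were lower without overlap, against 23.3% of all genes. In SIR3Δ against WT these were 4 and 1, against 28.3%. This split was made after the values were seen, and no test was made of it. The same split is not given for the other motifs or for all genes with a match. COX6 had 735 and 752 scaled reads in GPD-SIR3-A2Q, against 1000.03 and 1039 in GPD-SIR3 (log2 fold change −0.46 ± 0.11, SE; limma adjusted p = 0.146). QCR7 had 626 and 653 scaled reads in GPD-SIR3-A2Q, against 877 and 851 in GPD-SIR3 (log2 fold change −0.43 ± 0.11, SE; limma adjusted p = 0.147). In both genes the libraries of a strain were close together and the strains well apart. ATP7 had 904 and 831 scaled reads in GPD-SIR3-A2Q, against 1209 and 1246 in GPD-SIR3 (log2 fold change −0.50 ± 0.13, SE; limma adjusted p = 0.154).
LSC2 had the lowest value, with 612 and 598 scaled reads in GPD-SIR3-A2Q, against 850.2 and 1073 in GPD-SIR3. The strains did not overlap and the log2 fold change was −0.66 ± 0.17 (SE; 95% interval −1.05 to −0.266; limma adjusted p = 0.166). SDH2, of complex II, had 804 and 719 scaled reads in GPD-SIR3-A2Q, against 822 and 1080.0 in GPD-SIR3, narrowly without overlap (log2 fold change −0.31, limma adjusted p = 0.534). CYC1 had 1304 and 1246 scaled reads in GPD-SIR3-A2Q, against 1435 and 1609 in GPD-SIR3 (log2 fold change −0.25, limma adjusted p = 0.572). LPD1 was the highest member at 0.01, with 1343 and 1489.5 scaled reads in GPD-SIR3-A2Q, against 1307 and 1507 in GPD-SIR3.
Without GPD-SIR3 2 the members' median was −0.14 with 8 of 39 above 0, and without GPD-SIR3 1 it was −0.33 with 2 above 0. Without GPD-SIR3 1, the log2 fold change of COX13 was −0.88, a value that rests on the single library GPD-SIR3 2. COX13 had 692 and 655 scaled reads in GPD-SIR3-A2Q, against 776 and 1238 in GPD-SIR3. After TMM rescaling the median was −0.17 with 4 above 0, and 18 members lay below without overlap. The share of all genes without overlap is given above for the deposited scaling only, so 18 cannot be set against it.

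**Figure D4:**
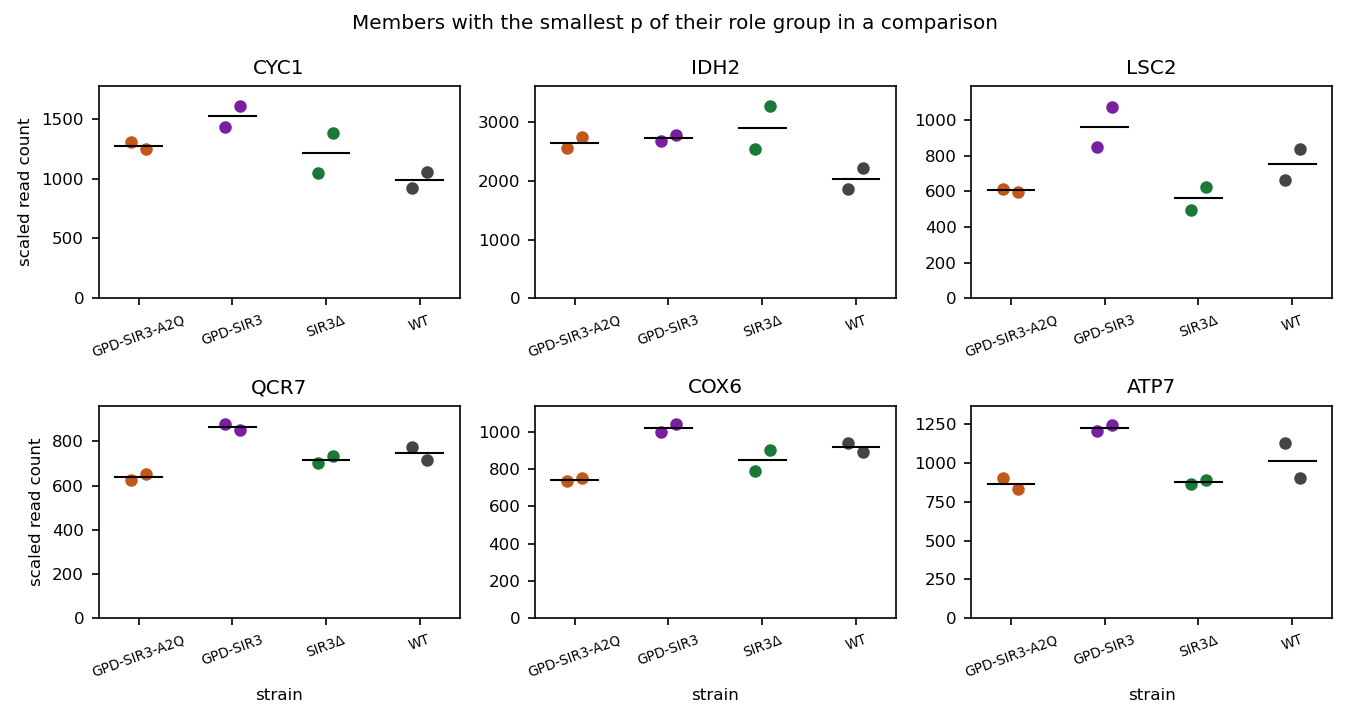
Scaled read counts (y axis, from 0) of 6 members in the 4 strains (x axis); points are libraries, 1 to the left of 2, and bars the mean of 2. COX6, QCR7, ATP7 and LSC2 have their highest pair in GPD-SIR3 (1000.03 and 1039 for COX6), and CYC1 and IDH2 have their lowest mean in WT.

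Around the 39 members, 11 lists of related genes (133 genes in all) were examined, and 131 of them passed the minimum. limma called 0 of them in every comparison; 11, 15, 11 and 15 had an unadjusted p below 0.05 in GPD-SIR3-A2Q, GPD-SIR3 and SIR3Δ against WT and in GPD-SIR3-A2Q against GPD-SIR3, where 6.85%, 8.68%, 8.44% and 10.2% of all genes had one. edgeR and limma-voom called 0 as well, and DESeq2 called 2, CIT2 and ADR1, both higher in GPD-SIR3 than in WT, where it called 0.439% of all genes higher. The 31 assembly factors of the respiratory complexes had medians close to those of the members: −0.08 for GPD-SIR3-A2Q against WT, 0.25 for GPD-SIR3 against WT, −0.04 for SIR3Δ against WT and −0.28 for GPD-SIR3-A2Q against GPD-SIR3. For 27 of the 31 the value was above 0 in GPD-SIR3 against WT, 4 had an unadjusted p below 0.05 there, and 7 had one in GPD-SIR3-A2Q against GPD-SIR3. SDH6, an assembly factor of complex II, had the smallest p, with 19.8 and 20.8 scaled reads in GPD-SIR3-A2Q, against 41.8 and 52 in GPD-SIR3 (log2 fold change −1.16 ± 0.29, SE; limma adjusted p = 0.146). The 11 ATP synthase subunits and inhibitors outside the members had medians of −0.15, 0.09, −0.07 and −0.43 in the same order of comparisons, and all 11 were below 0 in GPD-SIR3-A2Q against GPD-SIR3. The 7 respiratory dehydrogenases outside complex II, such as the NADH dehydrogenases NDI1 and NDE1 that stand in for complex I, had −0.11, 0.26, 0.03 and −0.37, with 7 of 7 above 0 in GPD-SIR3 against WT.
For the remaining lists the medians in GPD-SIR3 against WT and in GPD-SIR3-A2Q against GPD-SIR3 are to be read beside 0.04 and −0.07 for all genes. The 4 tested subunits of the pyruvate dehydrogenase complex, which feeds the cycle, had a median of 0.04 in GPD-SIR3 against WT and −0.02 in GPD-SIR3-A2Q against GPD-SIR3. The 8 genes of heme synthesis had 0.01 and −0.08, the 11 tested mitochondrial carriers −0.11 and −0.10, and the 8 mitochondrially encoded protein genes 0.13 and −0.07. The 17 genes of glycolysis and fermentation had −0.00 and 0.01. The 7 tested glucose-repressed genes of gluconeogenesis and the glyoxylate cycle had 0.19 and 0.05, with 4 of 7 above 0 in each. The 13 isoforms and paralogs had 0.01 and −0.26, and the 14 regulators of respiratory genes 0.13 and −0.07.
Among the regulators, HAP4, the subunit of the CCAAT-binding activator that sets its activity, had 812 and 635 scaled reads in GPD-SIR3-A2Q, 631 and 694 in GPD-SIR3, 948 and 758 in SIR3Δ, and 775 and 502 in WT, so that each of the other strains overlapped with WT. ADR1, an activator of glucose-repressed genes, had 427 and 724 scaled reads in GPD-SIR3, against 199.7 and 306 in WT (log2 fold change 1.17 ± 0.37, SE; limma adjusted p = 0.349; DESeq2 adjusted p = 0.0165). CIT2, the peroxisomal citrate synthase, had 1100.3 and 2169 scaled reads in GPD-SIR3, against 924 and 719.7 in WT (limma log2 fold change 0.92, adjusted p = 0.334; DESeq2 log2 fold change 0.94, adjusted p = 0.00937). Its highest library was again GPD-SIR3 2.
ROX1, a repressor of hypoxic genes, had 178 and 197 scaled reads in GPD-SIR3-A2Q, against 91.2 and 116 in WT (log2 fold change 0.86, limma adjusted p = 0.419). COX5B, the low-oxygen form of COX5A, had 37.3 and 79.8 scaled reads in GPD-SIR3-A2Q, against 151 and 112 in WT (log2 fold change −1.23 ± 0.42, SE; limma adjusted p = 0.589).

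Antisense transcripts were few and low. With a minimum overlap of 100 bases, 8 members had 14 annotated non-coding transcripts on the other strand, of which 4, over CYC1, COX5A and COX8, had enough reads to be tested; the pair over COX8 overlap each other. Per kb the 4 tested transcripts reached at most 0.846% of the level of their gene. The highest of the untested ones, over LPD1, stood at 1.19%. limma over the 3093 non-coding transcripts tested called 0 of these 4 in every comparison, and edgeR called 0. Of all those transcripts, 0.0% were called in GPD-SIR3-A2Q against WT, 2.49% in GPD-SIR3 against WT, 1.0% in SIR3Δ against WT and 2.94% in GPD-SIR3-A2Q against GPD-SIR3. By unadjusted p below 0.05, 1 of the 4 stood out in GPD-SIR3-A2Q against WT and 0 in the others. That was the transcript over COX5A on chromosome XIV, with 14.6 and 20.8 scaled reads in GPD-SIR3-A2Q, against 5.62 and 7.06 in WT (log2 fold change 1.34 ± 0.58, SE; limma adjusted p = 0.623), while COX5A itself had 1246 and 1147 scaled reads in GPD-SIR3-A2Q, against 1092 and 1352 in WT.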

How the data were processed

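Per the submitters' processing notes, reads were aligned with TopHat 1.4.1 to genome R64; the sources used here name neither the counting tool nor its treatment of strand and of multiply matching reads. The deposited table holds whole-number read counts for GPD-SIR3 2 and, for the other 7 libraries, a signal: counts that the authors multiplied by 1 factor per library so that gene rows have equal sums. Dividing each column by its step gave whole reads for 100% of values (tolerance 0.01). A further 16 per-sample columns were not used.

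Because the values are scaled, limma 3.58.1 (R 4.3.3) was the main test, on log2(value + 1) without further scaling, over all 8 libraries, with 4 residual degrees of freedom and a called threshold of 0.05. A fold change on this scale understates the change of low genes. edgeR 4.0.16, DESeq2 1.42.0 and limma-voom on the recovered reads, TMM rescaling, a pseudocount of 10, no minimum, a mean of at least 50, only the groups compared, a replicate block and leaving out each library were alternatives. The main test was also run on simulated counts with planted changes, most of them larger than the differences of the members. Its outcome is not given here, and it does not show how well differences of the members' size are found. Coding lengths come from the R64 annotation; 8 list genes were matched by its symbols. Described with values were, per comparison, the member of each role with the smallest p and the members with the highest and lowest fold change; ADR1, ROX1, SDH6 and COX5B had the smallest p of their list in a comparison, and HAP4 likewise. Isoform pairs were described except 1, and CCAAT matches are examples; some items are not reported here. CIT2 and ADR1 were called by DESeq2. Members and lists were chosen with earlier results of these data known. Reads without molecular identifiers are not independent molecules.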

Additional observations from a re-analysis of the deposited data

How the results depend on the processing

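With both libraries of each compared strain kept in, calls among the members were 0 in each comparison under the settings tried, except as follows. For GPD-SIR3 against WT, DESeq2 called 1 member higher (CYC1), and the fit with a replicate block also called 1 (CYC1, log2 fold change 0.62, adjusted p = 0.0360). For SIR3Δ against WT, DESeq2 called 1 higher (IDH2). For GPD-SIR3-A2Q against GPD-SIR3, the replicate block called 1 lower (LSC2, adjusted p = 0.0361). Without GPD-SIR3 1, COX13 had a log2 fold change of −0.88 there, in a fit that assumes the lone library to vary like the other strains. The F test called 1 (LSC2) with DESeq2 and 1 with the replicate block. The share of all genes called with the replicate block is not given here. Same-numbered libraries of different strains had deviations correlated between −0.03 and 0.55. The value was 0.55 for SIR3Δ with WT and 0.30 for GPD-SIR3-A2Q with GPD-SIR3, and below 0.1 in the other pairs of strains. The labels name no batch, and whether same-numbered libraries are paired was not settled. Leaving out single libraries, SDH3 in GPD-SIR3-A2Q against WT ran from −0.0612 (without GPD-SIR3-A2Q 2) to 0.23, and LPD1 in GPD-SIR3-A2Q against GPD-SIR3 from −0.0912 (without GPD-SIR3 1) to 0.11, with −0.06 without GPD-SIR3-A2Q 2. The cause was not tested. Over the left-out libraries, the members' median was −0.07 to 0.05, 0.17 to 0.42, −0.05 to 0.12 and −0.33 to −0.14 for GPD-SIR3-A2Q, GPD-SIR3 and SIR3Δ against WT and for GPD-SIR3-A2Q against GPD-SIR3. Every member had at least 223 reads in every library, and at the standard errors of 0.10 to 0.24 a p that misses the threshold does not show equal levels.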
